A study of Mus musculus with 9 samples.

Results

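Gene expression in the mouse salivary glands was compared between libraries from animals with a history of high-fat feeding and libraries from animals kept on chow. The comparison used all 9 libraries of the series, with 6 on the high-fat side and 3 on the control side. The 6 were 3 libraries of diet-induced obesity (DIO) and 3 of sleeve gastrectomy performed on obese mice (SG). DIO and SG entered with equal weight, as the mean of both groups minus control in 1 fit of 3 groups, so that the result describes what separated control from DIO and SG on average. A gene can pass on the strength of 1 of them, and the values of both are therefore given side by side.

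All libraries came from submandibular and sublingual glands of C57BL/6 females, 34 weeks old at collection. Control mice received standard chow from 4 weeks of age. DIO and SG mice instead received, from the same age and for 20 weeks, a diet with 60% of its calories from fat, and at 24 weeks of age the SG mice lost about 80% of the stomach along the greater curvature. That operation was done under 2% isoflurane after a fast of 12 hours. The labels mention no sham operation and name no diet after the 20 weeks, and they do not state that the 3 libraries of a group came from 3 animals. P-values therefore measure the spread between libraries, which may in part be technical.

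The submandibular gland secretes a watery, protein-rich saliva from serous acini, and in rodents its granular ducts store growth factors and kallikrein proteases. The sublingual gland secretes mucus. Gland function follows the daily cycle through the circadian clock, in which activators drive the genes of their own repressors. Diets rich in fat are known to raise fatty acid oxidation genes through PPAR nuclear receptors in several tissues, and to lower genes of lipid synthesis.

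Library totals ran from 36349885 to 43495564 counts. Levels are given in CPM, counts scaled to a common library size after TMM, a factor that offsets differences in RNA composition. Markers of the labelled glands were present in every library: submandibular acinar markers summed to 98700 to 142000 CPM and granular duct markers to 23400 to 42000 CPM, while of the sublingual markers Muc19 stood at 890 to 2200 CPM and Galnt12 at 12.0 to 32.8 CPM, and Tff2 was not analysed here. Control 2 stood apart. Ranked by expression, its genes correlated with those of other libraries at 0.973 on average, where the remaining 8 gave 0.985 to 0.987. Its lymph node and B cell markers summed to 135 CPM against 4.16 to 36.1 elsewhere, and its adipocyte markers to 28.5 CPM against 0.381 to 5.58. Amy1, an amylase gene of the parotid gland, reached 8370 CPM there, 1670 in control 1, 412 in control 3, at most 240 in DIO, and 11.8 to 1670 in SG. Of the other parotid markers Dnase1, Prpmp5 and Bpifa2 were also highest in control 2. Car6, the most abundant, was lowest among controls there (48800 CPM against 57300 and 63400), and Prp2 was 0 there and at most 0.243 CPM elsewhere. Their sum was 82800 CPM in control 2, 64500 and 65900 in control 1 and 3, 42500 to 56600 in DIO and 52600 to 67100 in SG. Values use all 9 libraries unless control 2 is said to be left out. In bulk tissue, fewer cells of a type and less RNA per cell cannot be told apart.

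**Figure D1:**
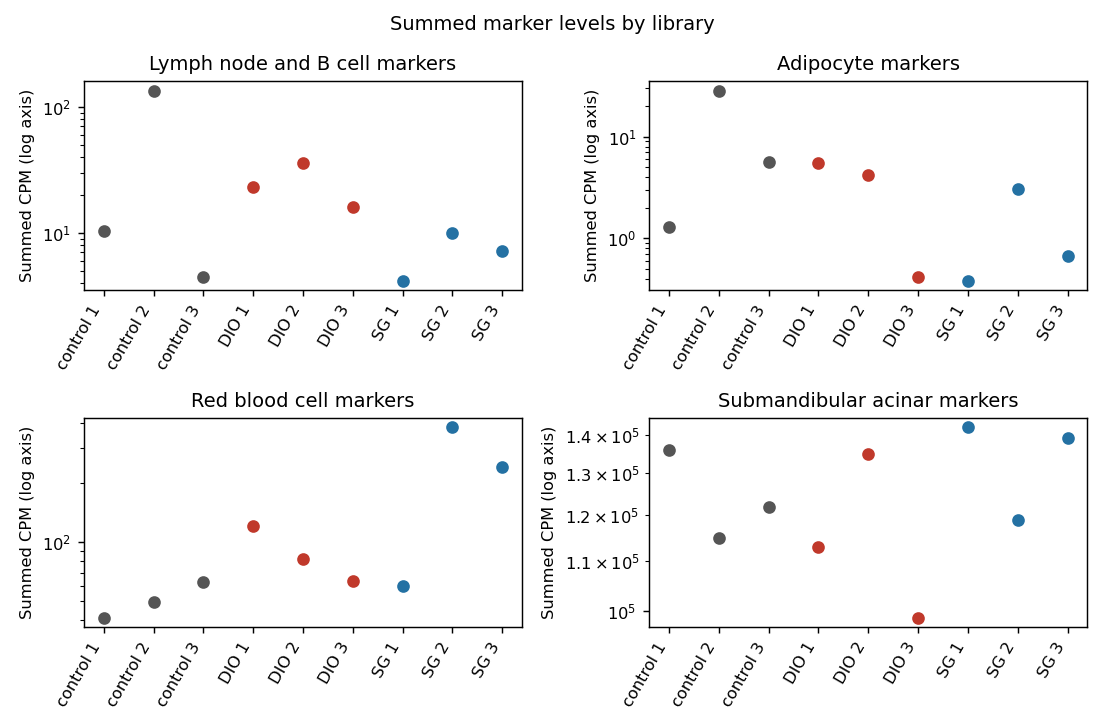
Summed CPM (log axis) of 4 marker lists in each of the 9 libraries, coloured by group. Control 2 is highest for lymph node and B cell markers (135 CPM) and adipocyte markers (28.5 CPM), SG 2 and SG 3 are highest for red blood cell markers (382 and 240 CPM), and submandibular acinar markers lie between 98700 and 142000 CPM throughout.

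Of 14912 genes tested, 7 changed with high-fat diet history (0.0469%): 3 rose (0.0201%) and 4 fell (0.0268%). Among those lower were the lipid kinase gene Dgki, the microtubule-associated kinase gene Dclk2 and the clock repressor Bhlhe41. Among those higher was the carboxylesterase gene Ces1d. The test was edgeR's quasi-likelihood F test with Benjamini-Hochberg adjustment over all genes tested, and an adjusted p under 0.05 counted as passing. In all 7 the 6 high-fat libraries lay on the same side of the 3 control libraries, as they did in 634 of all genes (4.25%; 2.38% above and 1.87% below control). The number with an unadjusted p under 0.05 was 1373 (9.21%), 655 higher and 718 lower (4.39% and 4.81%). An exact two-sided permutation test of log2(CPM + 0.5) over the 84 ways to pick 3 of 9 libraries gave p = 0.0119, the smallest it can give, for Dgki, Dclk2 and Ces1d, and p = 0.0238 for Bhlhe41. These genes were picked from the same libraries for passing without overlap. Small permutation p-values were therefore largely fixed in advance and add no separate support.

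The number of genes called depended on single libraries. Leaving out control 2 gave 23, with all 7 among them, and leaving out SG 1 gave 11. Only 1 gene was called without control 1, DIO 1 or DIO 2, and 3 were called when SG 2 was dropped. The counts for control 3, DIO 3 and SG 3 were 5, 5 and 6. Dgki passed in all 9 of these fits (highest adjusted p = 0.029), Dclk2 in 6, Bhlhe41 in 5 and Ces1d in 2. With the 6 high-fat libraries treated as 1 group no gene passed, although 1250 had an unadjusted p under 0.05, and the adjusted p of Dgki was then 0.065. In that fit the distance between DIO and SG adds to the spread. DESeq2, on the other hand, called 124 genes (0.741% of those it tested), 36 higher and 88 lower, and again all 7 were among them.

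**Figure D2:**
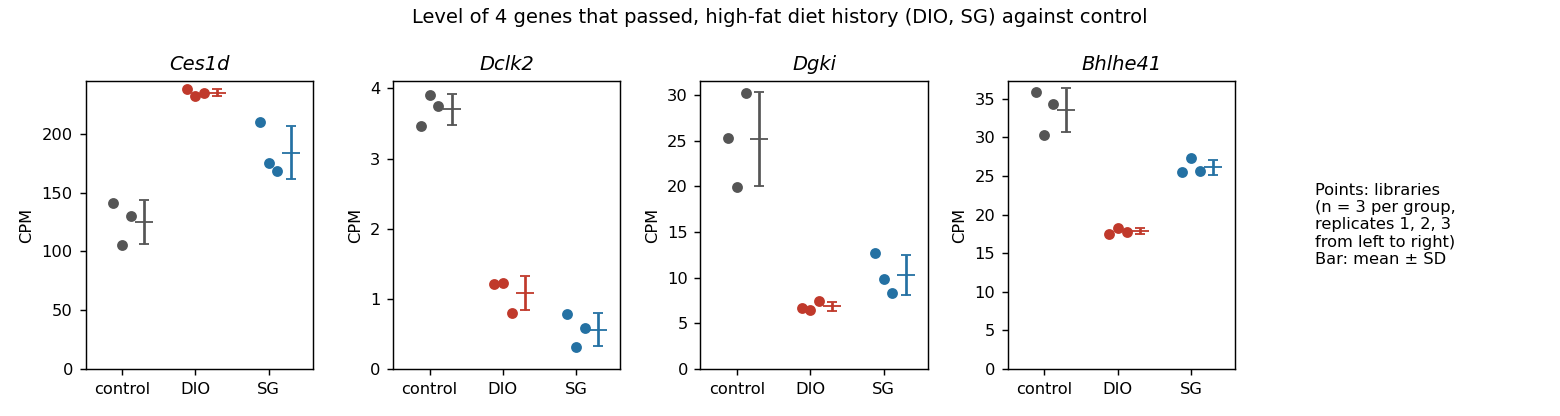
CPM of 4 genes that passed, 1 panel per gene with its own axis from 0, for 3 control, 3 DIO and 3 SG libraries (points) with the mean and SD of each group (bar). The DIO and SG points lie all below the control points in Dgki, Dclk2 and Bhlhe41 and all above them in Ces1d.

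RefSeq promoter windows (GRCm38.p6, 250 bases before to 50 after the gene start) were available for 3 of the 7 genes, all among those that fell, and are shown because these genes carry the lower side of the result. The window of Bhlhe41 lies at chr6:145865371-145865670 on the minus strand, that of Dgki at chr6:37299927-37300226 on the minus strand and that of Dclk2 at chr3:86920835-86921134 on the minus strand. Capitals mark the palindromic E-box CACGTG, the motif bound by clock activators and by Bhlhe41 itself. The nuclear receptor half-site AGGTCA and the D-box core TTATGNAA were searched on both strands too.
Bhlhe41: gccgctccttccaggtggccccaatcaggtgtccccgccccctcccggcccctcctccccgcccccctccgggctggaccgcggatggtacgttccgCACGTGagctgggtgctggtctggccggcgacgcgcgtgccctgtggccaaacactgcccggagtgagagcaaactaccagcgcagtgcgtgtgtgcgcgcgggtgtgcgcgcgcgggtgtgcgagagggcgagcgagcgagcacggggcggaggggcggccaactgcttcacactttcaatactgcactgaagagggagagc
Dgki: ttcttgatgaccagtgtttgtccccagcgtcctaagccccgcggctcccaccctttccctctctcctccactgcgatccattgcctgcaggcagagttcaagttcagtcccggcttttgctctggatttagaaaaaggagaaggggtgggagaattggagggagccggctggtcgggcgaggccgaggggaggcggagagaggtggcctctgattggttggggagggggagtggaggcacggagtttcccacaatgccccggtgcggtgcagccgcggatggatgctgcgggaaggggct
Dclk2: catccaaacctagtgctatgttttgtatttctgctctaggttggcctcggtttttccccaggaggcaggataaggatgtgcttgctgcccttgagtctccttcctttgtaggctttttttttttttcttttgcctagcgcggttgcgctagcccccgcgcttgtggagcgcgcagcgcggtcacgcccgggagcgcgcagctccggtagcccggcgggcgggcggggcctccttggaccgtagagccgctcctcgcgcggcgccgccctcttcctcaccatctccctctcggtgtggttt
The E-box stood once, starting 153 bases before the gene start of Bhlhe41, and 7.15% of the 32851 promoter windows of this length in the table hold it. Neither other motif was found in the 3 windows; AGGTCA is present in 16.3% of all windows and TTATGNAA in 3.38%. A match is a description of letters only.

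Among the genes of lipid signalling, Dgki (NCBI gene 320127) encodes diacylglycerol kinase iota, which turns the second messenger diacylglycerol into phosphatidic acid. Its level was 25.3, 19.9 and 30.2 CPM in control 1 to 3, 6.67, 6.47 and 7.40 CPM in DIO and 12.7, 9.84 and 8.30 CPM in SG. The highest high-fat library, SG 1, thus lay well under the lowest control, and DIO lay under SG. The log2 fold change was -1.58 (SE 0.14, adjusted p = 0.00209, edgeR), a level 3.0-fold lower than in control. It was -1.75 without control 2. Amy1 was high in the controls and in SG 1, as given above. Among the controls the orders were opposite, with Amy1 highest and Dgki lowest in control 2 (8370 and 19.9 CPM). Control 3 had the least Amy1 and the most Dgki (412 and 30.2 CPM). The part of Amy1 in the Dgki difference was not tested.

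Of 14 measured genes of diacylglycerol kinases and phosphatidate enzymes, Dgki was the only one to pass, and the list's median log2 fold change was -0.04 against 0.00 over all genes. Dgkz averaged a log2 difference of -0.22 (SE 0.09) and Dgkg one of 0.27 (SE 0.12), with adjusted p = 0.488 and 0.522 in edgeR's test. Neither passed.

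Dclk2 (70762) encodes a doublecortin-like kinase that binds microtubules. It was measured at 3.46, 3.90 and 3.75 CPM in control, 1.21, 1.23 and 0.799 CPM in DIO and 0.787, 0.311 and 0.583 CPM in SG. Control libraries were tight and all high-fat libraries lay well below them, with SG below DIO. The fall was -2.24 on the log2 scale (SE 0.27, adjusted p = 0.011, edgeR), or 4.74-fold. Its relative Dclk1 lay between 5.51 and 8.02 CPM in all libraries and did not pass (log2 difference 0.08, adjusted p = 0.915).

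Bhlhe41 (79362) encodes DEC2, which represses clock-driven transcription at the E-box shown above. Its 3 control libraries held 35.9, 30.3 and 34.3 CPM, the DIO libraries 17.5, 18.3 and 17.8 CPM and the SG libraries 25.5, 27.3 and 25.6 CPM. The 3 groups formed 3 separate steps with SG in the middle. The log2 fold change was -0.63 (SE 0.08, adjusted p = 0.011, edgeR) and -0.72 without control 2.

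The direction of the other clock genes was read against all genes, of which 50.2% were higher and 49.8% lower. Of 13 measured outputs and repressors 10 were lower and 3 higher (median log2 fold change -0.15), and only Bhlhe41 passed. Of 6 measured genes of activators and their phase 5 were higher and 1 lower, at a median of 0.38, and 1 of them passed. The activator Bmal1 itself was scarce, at 0.385 to 1.43 CPM over all libraries, and was not higher (log2 fold change -0.35, adjusted p = 0.862, edgeR). Clock had 0.30 (adjusted p = 0.48). Nr1d1, the repressor REV-ERB alpha, was 128, 120 and 124 CPM in control, 38.4, 53.2 and 44.6 in DIO and 73.6, 96.4 and 119 in SG. All 6 high-fat libraries lay below control, but SG 3 was close to control 2, and Nr1d1 did not pass (log2 fold change -0.91, SE 0.14, adjusted p = 0.0665). Dbp, an output factor, was 143 to 183 CPM among controls, 39.0 to 69.2 in DIO and 125 to 173 in SG (log2 fold change -0.83, adjusted p = 0.27), so SG overlapped control. Nfil3, which opposes Dbp, stood at 28.4 to 49.8 CPM in DIO, while SG (16.3 to 24.9) covered the range of control (19.1 to 23.1). Hours of collection are not stated in the labels.

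All 8 measured members of the red blood cell list were higher (median log2 fold change 1.20), 5 with an unadjusted p under 0.05, and 1 passed. Over all genes 4.39% were higher at that p. The haemoglobin gene Hbb-bs was 23.2 to 34.9 CPM in control, 37.6 to 70.0 in DIO and 36.6, 244 and 136 in SG 1 to 3, and did not pass (adjusted p = 0.522, edgeR). Summed markers were 41.4 to 62.8 CPM in control and 59.5 to 382 in the high-fat libraries, with SG 2 and SG 3 highest. Nerve and Schwann cell genes had a median of 0.12 with 0 of 16 past the threshold and 0 at an unadjusted p under 0.05 (edgeR).

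Ces1d (104158) encodes a carboxylesterase that hydrolyses triglycerides and other esters. Control libraries held 141, 105 and 130 CPM, DIO libraries 238, 232 and 235 CPM and SG libraries 210, 175 and 168 CPM. DIO was the highest group and its 3 libraries were nearly equal, SG was intermediate, and neither touched control. The log2 fold change was 0.73 (SE 0.11, adjusted p = 0.0331, edgeR), or 1.66-fold, and 0.60 without control 2. Of 14 measured lipases and carboxylesterases 7 were higher and 7 lower, with a median of -0.01, and Ces1d alone passed.

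Whether a change held with and without surgery was read from each group against the same control libraries, so these values share their controls and are not independent of each other. Dgki was lower in both (DIO minus control -1.88, SE 0.18, adjusted p = 0.00223; SG minus control -1.29, SE 0.17, adjusted p = 0.0433). Dclk2 passed in SG minus control (-2.72, adjusted p = 0.0433) and had adjusted p = 0.065 in DIO minus control (-1.77). Ces1d and Bhlhe41 passed in DIO minus control, with log2 fold changes of 0.91 and -0.90 (adjusted p = 0.0127 and 0.00223), and in SG minus control they had 0.56 and -0.36 (adjusted p = 0.333 and 0.489). All adjusted p-values here are edgeR's.

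SG and DIO were also set against each other in the same fit. No gene passed with all 9 libraries (edgeR), while 1246 (8.36%) had an unadjusted p under 0.05 and DESeq2 called 80. Without control 2, a library of neither group, 130 genes passed (0.861%), 20 higher and 110 lower in SG. The differences of SG minus DIO were 0.55 for Bhlhe41 (adjusted p = 0.1), 0.59 for Dgki, -0.94 for Dclk2 and -0.35 for Ces1d (adjusted p = 0.422 to 0.503). A missed threshold does not show that SG and DIO were alike.

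**Figure D3:**
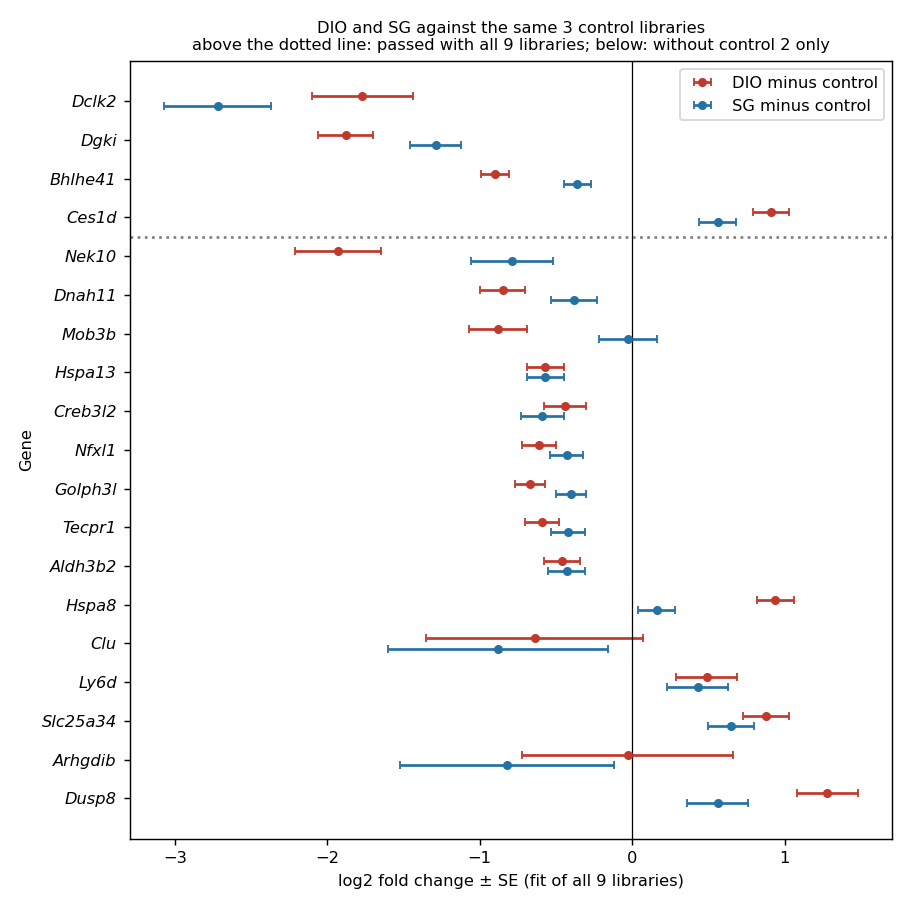
Log2 fold change ± SE of DIO minus control and of SG minus control, from 1 fit of 9 libraries that shares the controls, for 4 genes that passed (above the dotted line) and 15 that passed when control 2 was left out (below). Among the 4 both values lie on 1 side of 0 per gene, with Bhlhe41 nearer to 0 in SG (-0.36) than in DIO (-0.90).

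Without control 2, 23 of 15092 genes passed (0.152%), 10 higher and 13 lower (0.0663% and 0.0861%). In that fit 9.52% of genes had an unadjusted p under 0.05, 4.98% higher and 4.55% lower, 50.2% were higher at all, and 9.99% had no overlap between the groups (5.12% higher, 4.88% lower). The 16 beyond the 7 included secretory pathway and chaperone genes. Hspa13, a heat shock protein relative in the secretory pathway, was 80.9 and 72.9 CPM in control 1 and 3, 45.0 to 56.2 in DIO and 42.3 to 55.2 in SG (log2 fold change -0.66, SE 0.11, adjusted p = 0.0232 without control 2). Control 2 itself, at 64.9 CPM, also lay above all 6, and the value with it was -0.57 (adjusted p = 0.12). The Golgi gene Golph3l and the membrane-bound transcription factor gene Creb3l2, which acts on secretory genes, were lower too (-0.61 and -0.66, adjusted p = 0.0232 and 0.0265; with control 2 -0.53 and -0.51, adjusted p = 0.0665 and 0.27). Golph3l was 48.8 to 57.2 CPM in all 3 controls and 31.3 to 45.0 in the high-fat libraries.

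Also lower without control 2 were the kinase gene Nek10 (-1.37), the axonemal dynein gene Dnah11 (-0.76), Mob3b, of a family of kinase activators (-0.69), the zinc finger gene Nfxl1 (-0.63), the autophagy gene Tecpr1 (-0.60) and the aldehyde dehydrogenase gene Aldh3b2 (-0.57), with adjusted p = 0.00931 to 0.0457. In Mob3b the fall was in DIO (21.9 to 26.8 CPM), and SG (40.0 to 48.2) came close to control 1 and 3 (53.1 and 50.9). Control 2, at 30.3 CPM, lay below SG. Nfxl1 was 15.9 to 19.6 CPM in DIO and 19.4 to 21.4 in SG, against 24.0 to 30.1 in all 3 controls. SG minus DIO was 0.18 for Nfxl1, 0.16 for Tecpr1 and 0.03 for Aldh3b2 (adjusted p = 0.709 to 0.976). With control 2 the log2 differences were -1.36 for Nek10, -0.61 for Dnah11, -0.45 for Mob3b, -0.52 for Nfxl1, -0.50 for Tecpr1 and -0.44 for Aldh3b2, and none passed (adjusted p = 0.0699 to 0.437, edgeR).

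Higher without control 2 were the MAP kinase phosphatase gene Dusp8 (1.10), the mitochondrial carrier Slc25a34 (0.85), the surface protein gene Ly6d (0.77) and the chaperone gene Hspa8 (0.62; adjusted p = 0.0232 to 0.0457). Slc25a34 was 10.5 to 13.9 CPM among controls, 20.1 to 24.2 in DIO and 15.1 to 21.4 in SG, without overlap (with all libraries 0.76, adjusted p = 0.079). With control 2 Dusp8 had 0.92, Ly6d 0.46 and Hspa8 0.55 (adjusted p = 0.145 to 0.483). Hspa8 was high in DIO (913 to 1170 CPM), whereas SG (577 to 602) overlapped control (475 to 590). Arhgdib, a regulator of small GTPases in blood cells, and Clu, a secreted chaperone, passed as higher without control 2 (0.88 and 0.63, adjusted p = 0.0443 and 0.0351) but had -0.43 and -0.76 with it. Control 2 held 39.6 CPM of Arhgdib and 86.8 of Clu, against 6.15 to 19.2 and 13.6 to 25.5 in the other 8.

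Fatty acid oxidation genes and PPAR targets went both ways. Of 28 measured, 17 were higher and 11 lower (median log2 fold change 0.08), 5 had an unadjusted p under 0.05 on the higher side and 4 on the lower, where all genes gave 4.39% and 4.81%, and 0 passed. Ucp3, a mitochondrial uncoupling protein and PPAR target, was 0.984, 1.42 and 0.697 CPM in control, 2.91, 2.41 and 1.68 in DIO and 2.56, 2.6 and 4.05 in SG. All 6 high-fat libraries lay above control (log2 fold change 1.37, SE 0.30, adjusted p = 0.24 in edgeR's test). The acyl-CoA thioesterase Acot1 was also higher without overlap, at 11.2 to 15.5 against 9.01 to 10.6 CPM (adjusted p = 0.292). 

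Angptl4, a PPAR target that inhibits lipoprotein lipase, was named after its values were seen. It had 2 counts each in control 1 and control 3 and 27 to 77 counts in the high-fat libraries, but 114 counts in control 2, which stood above all others. It passed without control 2 (adjusted p = 0.00829) and not with it (adjusted p = 0.91, edgeR). Adipocytes make it too, and their markers were highest in control 2. The part of such cells in its level was not tested.

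Lipid synthesis was covered by a pair of lists. Of 24 measured genes of cholesterol synthesis and uptake 23 were lower (median log2 fold change -0.36), 10 with an unadjusted p under 0.05, and 0 passed. Over all genes 49.8% were lower, and 4.81% were lower with such a p. Idi1, the isomerase of the isoprenoid steps, was 7.26 to 12.3 CPM in control, 2.80 to 3.81 in DIO and 11.4, 4.44 and 3.38 in SG. SG 1 thus stood with control, and SG 2 and SG 3 nearer to DIO. The list's median was -0.53 in DIO minus control and -0.15 in SG minus control.

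Genes of fatty acid and glycerolipid synthesis were lower in 20 of 22 members (median -0.26). Of them 6 had an unadjusted p under 0.05, where all genes gave 4.81% on the lower side, and 0 passed. Without control 2 the number lower was 15 of 22 and the median -0.17. Acss2, which makes acetyl-CoA from acetate, was 38.0 to 40.4 CPM in control and 27.1 to 34.1 in the high-fat libraries, without overlap (log2 fold change -0.35, SE 0.07, adjusted p = 0.214). Fasn, the fatty acid synthase, was 87.2, 155 and 108 CPM in control and 59.7 to 94.7 in the others, of which SG 1 overlapped control 1. Scd1, a desaturase, was 106, 320 and 152 CPM in control, and the DIO libraries (144 to 150) lay among them. The SG libraries, at 95.3, 67.6 and 105 CPM, lay below all controls, SG 3 only just (SG minus control -1.11, adjusted p = 0.659, edgeR).

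Of 16 measured glucocorticoid-induced genes 6 were higher and 10 lower (median -0.09), and 0 passed in edgeR's test. To each side 3 had an unadjusted p under 0.05, where all genes gave 4.39% higher and 4.81% lower. Zbtb16, a zinc finger factor, was 2.66, 3.92 and 3.82 CPM in control, 28.4, 23.5 and 30.6 in DIO and 22.3, 4.59 and 10.4 in SG. Every high-fat library exceeded every control, but SG spread widely (log2 fold change 2.41, SE 0.51, adjusted p = 0.284). Fkbp5, a chaperone partner of the glucocorticoid receptor, was 49.7 to 69.2 CPM among controls, 88.5 to 131 in DIO and 69.4 to 76.6 in SG (0.63, adjusted p = 0.27). Tsc22d3, known as GILZ, had a log2 difference of -0.35, with SG (38.5 to 45.9 CPM) below and DIO (58.9 to 66.7) within the range of control (57.4 to 70.7).

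In the heat shock list 12 of 16 members were higher (median 0.08). Hsp90ab1, a cytosolic chaperone, was 610 to 624 CPM among controls, 760 to 958 in DIO and 697 to 734 in SG, without overlap (log2 fold change 0.33, SE 0.09, adjusted p = 0.309). Genes of protein folding in the endoplasmic reticulum leaned the other way, with 17 of 25 lower (median -0.12) and 21 of 25 lower without control 2. Eif2ak3, the stress kinase PERK, was 144 to 157 CPM in control and 104 to 122 in the high-fat libraries (-0.36, SE 0.07, adjusted p = 0.195). Of secretory traffic genes 13 of 23 were lower, and 18 of 23 without control 2. Sec23b, of the vesicle coat that leaves the endoplasmic reticulum, was 221 to 283 CPM in control and 174 to 218 in the others (-0.42, adjusted p = 0.276). No member of the 3 lists passed with all 9 libraries. An unadjusted p under 0.05 (edgeR) was found for 5 of 16 heat shock genes on the higher side and 0 on the lower. For the folding list it was 0 higher and 4 of 25 lower, and for secretory traffic 0 higher and 2 of 23 lower. All genes gave 4.39% higher and 4.81% lower.

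Immune lists are given for both groups. In the interferon response 26 of 30 members were higher (median log2 fold change 0.21). Of them 7 had an unadjusted p under 0.05, where all genes gave 4.39% on the higher side, and 0 passed. The list's median was 0.45 in DIO minus control and -0.04 in SG minus control. Igtp, an interferon-induced GTPase, was 11.6, 10.8 and 8.75 CPM in control, 24.1, 19.5 and 18.0 in DIO and 9.85 to 12.4 in SG. SG thus overlapped control. Antigen presentation genes were higher in 18 of 19 members (median 0.17, and 0.44 without control 2), with medians of 0.49 in DIO and -0.01 in SG against control.

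Of 27 genes of macrophages and dendritic cells, 18 were higher (median 0.19), and 25 were so without control 2 (median 0.48). With all 9 libraries the list's median was 0.37 in DIO and 0.09 in SG against control. C1qb, of the first complement component, was 22.1 to 30.2 CPM in control, 37.3 to 45.1 in DIO and 25.7, 34.9 and 35.3 in SG (0.46, SE 0.13, adjusted p = 0.303). Lymphocyte lists turned with control 2. T and NK cell genes had a median of -0.64 with that library and 1.03 without it, and B cell and lymph node genes -1.74 and 1.18. With all 9 libraries the T and NK cell median was 0.34 in DIO and -1.63 in SG against control. The B cell and lymph node median was -0.54 in DIO and -3.00 in SG against control. Summed lymph node and B cell markers were 16 to 36.1 CPM in DIO and 4.16 to 10 in SG. In control 1 and 3 that sum was 10.3 and 4.42 CPM. No member of any immune list passed with all libraries. In the B cell list 1 of 17 had an unadjusted p under 0.05, against 4.81% of all genes on the lower side. It was Ccl21a, a lymph node chemokine (34.8 CPM in control 2, 2.66 and 3.77 in control 1 and 3, 0.856 to 2.27 in the others). Plasma cell genes and inflammatory cytokine genes had medians of -0.08 and -0.18, and 0.15 and 0.00 without control 2. Against control with all libraries they had 0.22 and -0.06 in DIO, and -0.34 for both lists in SG.

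**Figure D4:**
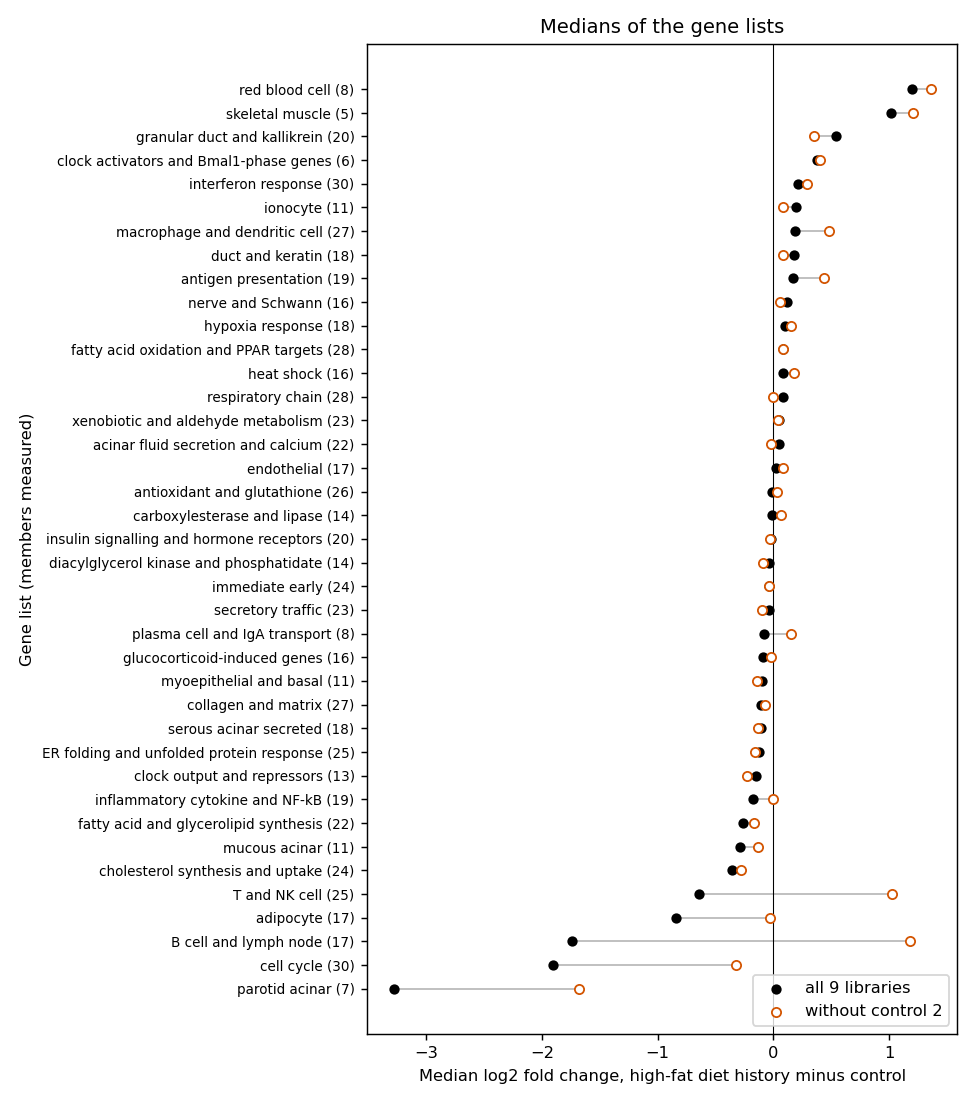
Median log2 fold change of high-fat diet history minus control for 39 gene lists, with the number of measured members in parentheses, for all 9 libraries (filled) and without control 2 (open). B cell and lymph node, T and NK cell genes cross 0 when control 2 is left out (-1.74 to 1.18 and -0.64 to 1.03), while cholesterol synthesis (-0.36 and -0.28) and granular duct genes (0.54 and 0.35) keep their side.

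Among secretory cell genes, the list of granular duct and kallikrein genes had 17 of 20 members higher (median 0.54, and 0.35 without control 2), with medians of 0.45 in DIO and 0.62 in SG against control. Of these, 8 had an unadjusted p under 0.05, where all genes gave 4.39% on the higher side, and 0 passed. Without control 2, 4 of 20 were higher and 1 lower at that p. In that fit all genes gave 4.98% higher and 4.55% lower. Klk1b5, a kallikrein protease, was at most 674 CPM in control (control 1), 842, 696 and 985 in DIO and 797, 985 and 669 in SG. Only SG 3 fell inside the range of control, and just under control 1 (log2 fold change 0.66, SE 0.19, adjusted p = 0.342, edgeR). The kallikrein genes are near-identical copies in part, so that counts may be split among them. Egf, the growth factor stored in these ducts, was 605 to 1080 CPM in control and 881 to 1360 in the others (0.40, and 0.21 without control 2; adjusted p = 0.599 and 0.798). Klk1 had 0.17 and, without control 2, 0.03 (adjusted p = 0.779 and 0.976).

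Serous acinar genes had a median of -0.11 with 12 of 18 lower, and mucous acinar genes one of -0.29 with 11 of 11 lower, or 10 of 11 and -0.13 without control 2. Prol1, the most abundant serous marker listed, was 72700 to 89900 CPM in control and 54800 to 103000 in the others (log2 difference -0.01, SE 0.16). Aqp5, the acinar water channel, was 533 to 655 and 527 to 728 CPM (0.05, SE 0.11), Smgc 925 to 3630 and 1770 to 5170 CPM, and Muc19, the sublingual mucin, 1100 to 2200 and 890 to 1520 CPM. None of these 4 passed (adjusted p = 0.74 to 0.988). Without control 2 the log2 differences were -0.12 for Prol1, -0.05 for Aqp5, 0.24 for Smgc and -0.03 for Muc19. Parotid acinar genes were lower in 7 of 7 members (median -3.28, and -1.68 without control 2), with Amy1 as given above. The amount of parotid tissue per library was not tested.

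Duct and keratin genes were higher in 15 of 18 members (median 0.18) but in 11 of 18 without control 2. Foxi1, a transcription factor of ionocytes, was 14.6 to 18.1 CPM in control and 18.4 to 29.1 in the high-fat libraries, without overlap (0.55, SE 0.15, adjusted p = 0.292). Of 11 measured ionocyte genes 8 were higher and 3 lower, with a median of 0.20, or 0.08 without control 2. On each side 1 of them had no overlap, where all genes gave 2.38% above and 1.87% below control. The duct marker Cftr was lower, at 10.4 to 19.4 CPM in the high-fat libraries against 20.3 to 26.4 in control. Fluid secretion and calcium genes had a median of 0.05, and of -0.02 without control 2. In that list the bicarbonate exchanger Slc4a2 was 22.2 to 24.6 CPM in control and 27.4 to 31.6 in the others (0.30, SE 0.08, adjusted p = 0.279). Myoepithelial and endothelial genes had medians of -0.10 and 0.02, and collagen and matrix genes one of -0.11 with 23 of 27 lower, or 19 of 27 without control 2.

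Cell cycle genes were lower in 29 of 30 members (median -1.91). An unadjusted p under 0.05 was reached by 22 of them, against 4.81% of all genes on the lower side. This rested largely on control 2. Mki67, a marker of dividing cells, was 45.5 CPM there, 7.39 and 5.19 in control 1 and 3 and 2.39 to 8.44 in the others. Without control 2 the list's median was -0.32, with 4 of 30 lower and 1 higher at that p. In that fit all genes gave 4.55% lower and 4.98% higher. Adipocyte genes behaved alike (16 of 17 lower, median -0.84; 9 of 17 and -0.03 without control 2). Adipoq, the adipocyte hormone adiponectin, was 9.75 CPM in control 2, 0.372 and 1.37 in the other controls and 0.0508 to 1.70 elsewhere.

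Hypoxia response genes were higher in 10 of 18 members (median 0.10). Egln3, an oxygen-sensing hydroxylase, was 17.3 to 22.4 CPM among controls, 23.4 to 26.9 in DIO and 28.3 to 32.2 in SG, without overlap (0.46, SE 0.10, adjusted p = 0.214). The glycolytic genes Pgk1 and Ldha also had no overlap (log2 fold change 0.28 for both, adjusted p = 0.292 and 0.389). Ldha was named after its values were seen. In the list 3 of 18 lay above control without overlap and 0 below, where all genes gave 2.38% and 1.87%. Medians of the remaining lists lay between -0.04 and 0.08 for immediate early, insulin signalling, antioxidant, respiratory chain and xenobiotic genes. In the latter Adhfe1, an alcohol dehydrogenase, was 22.8 to 23.4 CPM in control and 13.3 to 20.0 in the high-fat libraries (-0.44, SE 0.09, adjusted p = 0.214). Skeletal muscle genes had a median of 1.02 over 5 members, with summed markers of 29.2 CPM in SG 2 and 2.74 to 4.54 in the other 8.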

How the data were processed

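The authors deposited whole-number read counts per gene without scaling, and FPKM values of the same 23256 genes and 9 libraries. The FPKM were used only to check that count and FPKM imply 1 length per gene (largest deviation 0.000278%). Per the labels' protocols, extraction used TRIzol, the RNA was polyadenylated and the library kit was VAHTS Universal V6. Per the submitters' processing notes, HISAT2, Salmon and GRCm39 were used. The sources used here give no versions, annotation, strand setting or rule for reads that map to several places.

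Genes were tested in edgeR 4.0.16 (R 4.3.3; TMM, filterByExpr by group, robust quasi-likelihood F test, Benjamini-Hochberg over 14912 genes), with the contrast of DIO and SG, averaged with equal weight, minus control. SE is the log2 fold change divided by the root of F. Replicates varied with a common biological coefficient of 0.206, on 6 residual degrees of freedom. On simulated counts of 14912 genes for this comparison, 97 of 100 genes changed by 1.5 on the log2 scale and 73 of 100 changed by 0.75 were recovered, with 5 unchanged genes called. The changed genes had a mean above 2 CPM, DIO and SG were shifted equally, and spread followed the trend over all genes. No simulated library stood apart as control 2 did, so these rates need not hold for the real libraries. A count of 3 equals 0.069 to 0.0825 CPM.

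Alternatives used DESeq2 1.42.0, limma 3.58.1 (voom), other scaling, filters and designs, a replicate block, and each library left out. Named genes were those past the threshold without overlap and with at least 2 CPM in a group (up to 14 per side, and up to 10 more without control 2), up to 3 passing or 2 leading members of each list, and a panel of 14. Some further list members and relatives of called genes were named after their values were seen. The members, lists and tests were chosen with earlier results of these data known. A few genes chosen this way, among them 3 of the 7 that passed, are not reported here. Lists are described by counts and medians, without a set test. Replicate libraries differed by a chi-square of 28.3 to 216 per degree of freedom, so none was a copy of another.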

Additional observations from a re-analysis of the deposited data

How the results depend on the processing

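Against 7 genes (3 higher, 4 lower) for high-fat diet history minus control, the count was 24 (6 and 18) without a filter on low counts, 11 (5 and 6) with a replicate block, 0 with 2 groups of 6 and 3 libraries (1250 at an unadjusted p under 0.05), 17 (6 and 11) with limma voom and sample quality weights, and 124 (36 and 88) with DESeq2. It was 8 (3 and 5) with library totals, 7 with a filter of 2 CPM and 5 (1 and 4) without edgeR's robust option, a setting chosen after seeing the data. Leaving out 1 library gave 1 to 23 genes. For SG minus DIO the count was 0, changing to 1 with library totals, 9 without a filter, 1 with a replicate block, 80 with DESeq2 and 0 to 130 with 1 library left out. The cause was not tested.

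The 7 genes kept their direction in all 17 alternatives, and Dgki passed in 16 of them (log2 fold change -1.75 to -1.43). Without control replicate 2, Arhgdib moved to 0.88 and Clu to 0.63, opposite to their values with it (-0.43 and -0.76), and over all libraries left out singly they ranged from -0.84 to 0.88 and from -1.16 to 0.63. Of 39 list medians 24 kept their sign in all 12 alternatives run on lists. Library totals moved the median of all genes to 0.06. Groups use the same replicate numbers without a stated pairing of libraries. Same-numbered libraries correlated at -0.093 to 0.307 in their deviations, above 0.1 in 3 of 9 pairs, and 3 of 9 libraries correlated best with their own number. The pairing was therefore not used, and the block gave the 11 genes above, with all 7 among them. Precision was limited by 3 libraries per group.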

Other observations

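Beyond the 7 genes, 8 had an adjusted p from 0.05 to 0.1 in edgeR's test (0.0665 to 0.079), 2 higher and 6 lower: Golph3l, Nr1d1, Rhou, Nek10, Ripor2, Susd2, Rnase1 and Slc25a34. Susd2, which encodes a membrane protein, was 40.9, 41.7 and 40.1 CPM in control, 31.1, 29.4 and 31.4 in DIO and 31.8, 30.8 and 32.9 in SG. Both high-fat groups were thus low by a similar amount, with tight replicates (log2 fold change -0.39, SE 0.07, adjusted p = 0.0727). Ripor2 was 27.5 to 30.3 CPM in control and 18.2 to 22.9 in the 6 others (-0.51, SE 0.09, adjusted p = 0.0699). Rhou, a small GTPase, was 61.3 to 68.1 CPM among controls, 97.2 to 101 in DIO and 73.6 to 86.8 in SG (0.47, SE 0.08, adjusted p = 0.0687). Rnase1, a secreted ribonuclease, had 41, 94 and 19 counts in control and 3 to 13 counts in the 6 others. These were singled out after their values were seen.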
